A study of Homo sapiens with 4 samples.

Results

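The genes described here are long intergenic noncoding RNAs that carry the numbered LINC symbol and whose probe sets were bright enough to be measured in U2OS cells. They were chosen by 2 properties, a symbol of LINC followed by digits alone and a measured mean over the 4 arrays at or above the median of all probe sets, a log2 value of 4.59 that is called the intensity bound here. For a gene with several probe sets, the 1 with the highest mean was used. This gave 148 genes of the 458 LINC genes that have a named probe set, and they stood among 10696 genes tested in all. Brightness therefore chose the genes and is not a result, and LINC02582 was included by name for the size of its fall.

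Long intergenic noncoding RNAs are transcribed by RNA polymerase II from stretches between protein-coding genes, are often spliced and polyadenylated, and encode no known protein. The LINC symbol with a number is given to such a gene when no function has yet provided a better name, so the members share a naming rule and not a pathway. Some act in the nucleus on chromatin or on neighbouring genes, others bind proteins or microRNAs in the cytoplasm, and for many no role is known. Nuclear exosome and Integrator proteins limit the level of many such transcripts.

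U2OS is a human osteosarcoma line. The cells were transfected with siRNA at 50 nM, either a scrambled control or siRNA against BRPF3, a bromodomain protein that holds KAT7 acetyltransferase complexes together, and were compared after 48 hours. Each group held 2 arrays, labelled biological replicates of that line, with no genetic change in either group. Whether the replicates came from separate cultures is not stated beyond that label, so each p-value reflects array-to-array spread that may be technical, and 2 arrays per group limit the precision. In such bulk RNA, fewer cells expressing a gene and less of its RNA per cell cannot be told apart. A gene is called named here when a probe set has it as its only gene symbol. BRPF3 is not named in this sense, and probe sets with several symbols were not searched for it. The knockdown was therefore not checked on these arrays, and effects of the depletion and of the siRNA itself cannot be told apart. Of 10 osteoblast and osteosarcoma markers, 5 are named on the array, and 4 of these (RUNX2, SP7, SPP1 and VIM) were at or above the bound, while IBSP was under it. All 4 named epithelial markers, both named leukocyte markers and 1 of 3 named endothelial markers were also at or above it. KRT18 (log2 difference -0.49) and LAPTM5 (-0.88) fell among these other-cell markers, and their part in the differences below was not tested.

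After BRPF3 siRNA, 14 of the 148 LINC genes rose and 8 fell, and 126 did not pass the test (limma, Benjamini-Hochberg adjusted p under 0.05 over all genes tested). Of the 148, 12 had 1 group mean under the intensity bound (2 risen, 2 fallen and 8 that did not pass) and so entered through the group where they were high, which leaves 12 risen and 6 fallen among the 136 with both group means at or above it. The largest rise was that of LINC00707 at 2.08-fold, and the largest fall that of LINC02582 at 4.67-fold. The share of LINC genes called, 14.9%, lay close to the 15.8% of all genes tested. Risen genes made up 9.46% of the LINC genes against 6.32% of all genes, and fallen genes 5.41% against 9.44%. The median log2 difference was 0.02 over the LINC genes and -0.03 over all genes. The arrays of the groups did not overlap for 85 of the LINC genes, or 57.4%, against 63.2% of all genes. In 48 of these 85 the BRPF3 siRNA arrays were the higher ones (32.4% of LINC genes against 27.3% of all genes), and in 37 the lower ones (25% against 35.9%). A difference of at least 2-fold was seen in 2 LINC genes, LINC02582 and LINC00707, or 1.35% beside 0.626% of all genes. LINC02582 was included for that size, so nothing is read from this share. An unadjusted p under 0.05 was reached by 54 LINC genes, or 36.5% against 34.6%.

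LINC02582, reported in breast cancer cells as a partner of the deubiquitinase USP7, had log2 values of 6.04 and 6.27 with control siRNA and of 4.16 and 3.70 with BRPF3 siRNA. Both BRPF3 siRNA arrays lay far below both control arrays and below the intensity bound, where RMA values are compressed, so the size of the fall is uncertain. The log2 difference was -2.22 ± 0.17 (here and below, ± is the standard error from limma, with n = 2 in each group). This gene was singled out for that difference, which is therefore given as a description.

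LINC00511, a transcript studied in several cancers and located next to SOX9, was the next largest fall. Its log2 values were 8.19 and 8.13 with control siRNA and 7.59 and 7.32 with BRPF3 siRNA, a fall by 0.71 ± 0.11 or 1.63-fold (limma, adjusted p = 0.0183). The groups did not overlap, and the BRPF3 siRNA arrays lay farther apart from each other than the control arrays. A second probe set of LINC00511 also read lower, by -0.49.

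LINC00173, known from studies of blood cell differentiation, read 5.65 and 5.91 with control siRNA and 5.21 and 5.16 with BRPF3 siRNA (-0.59 ± 0.11, adjusted p = 0.0249). All 3 of its other probe sets lay under the intensity bound and read higher after BRPF3 siRNA, by 0.13 to 0.51, so the direction for this gene rests on the brightest probe set alone. LINC01963 read 6.08 and 6.06 with control siRNA and 5.68 and 5.37 with BRPF3 siRNA (-0.54 ± 0.12, adjusted p = 0.0366). LINC01446 read 7.15 and 7.03 against 6.46 and 6.64 (-0.54 ± 0.10, adjusted p = 0.0249).

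The other 3 fallen genes differed less. LINC01116, a transcript studied in several tumours, fell by 0.44 ± 0.09 from values of 5.93 and 5.87 to 5.37 and 5.54 (adjusted p = 0.0323). LINC00954 had control arrays at 4.93 and 4.92 and BRPF3 siRNA arrays at 4.44 and 4.48, a difference of -0.47 ± 0.08. It entered through its control arrays alone, since both BRPF3 siRNA arrays lay under the intensity bound, so no p is given for it. LINC00641 fell by 0.39 ± 0.10 and had the highest adjusted p of the fallen genes (0.0470). It read 5.09 and 4.89 with control siRNA and 4.62 and 4.58 with BRPF3 siRNA, the latter close to the intensity bound. Its second probe set lay under the bound and differed by -0.05, so the fall rests on the brighter probe set.

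Among the risen genes LINC00707, studied in cancers and in bone marrow stromal cells, read 5.91 and 5.95 with control siRNA and 6.92 and 7.05 with BRPF3 siRNA. The gap between the groups was several times the gap between arrays of either group. The log2 difference was 1.05 ± 0.09 (limma, adjusted p = 0.00756). LINC00862 read 6.74 and 7.02 against 7.74 and 7.99, a rise of 0.98 ± 0.13 or 1.97-fold (adjusted p = 0.0148). LINC00910 read 5.67 and 5.53 against 6.42 and 6.43, a rise of 0.82 ± 0.09 or 1.77-fold (adjusted p = 0.00985). In both, the lower BRPF3 siRNA array stood clear of the higher control array.

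LINC01569 read 4.57 and 4.61 with control siRNA, at the intensity bound, and 5.40 and 5.29 with BRPF3 siRNA (0.75 ± 0.08, adjusted p = 0.00994). LINC03027 read 6.44 and 6.19 against 7.08 and 6.97 (0.71 ± 0.11, adjusted p = 0.0183), and its second probe set also read higher, by 0.38. LINC00858, studied in colorectal cancer, read 5.33 and 5.12 against 5.87 and 5.97 (0.70 ± 0.10, adjusted p = 0.0161). These 3 genes rose by 1.62-fold to 1.68-fold, with no overlap between the groups.

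LINC00963, also known as MetaLnc9 and studied in prostate and lung cancer, was among the brighter probe sets of the risen genes. It read 8.95 and 8.94 with control siRNA and 9.43 and 9.57 with BRPF3 siRNA, a rise of 0.56 ± 0.09 or 1.48-fold (adjusted p = 0.0181). The control arrays were nearly equal, and the rise was several times the difference between the BRPF3 siRNA arrays. LINC01061 read 9.45 and 9.54 against 9.89 and 9.96 (0.43 ± 0.08, adjusted p = 0.0278). Its 6 other probe sets, all above the bound, read higher by 0.26 to 0.55. LINC01278 read 8.39 and 8.45 against 8.81 and 8.89 (0.43 ± 0.08, adjusted p = 0.0266).

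The remaining risen genes were LINC00997 (0.65 ± 0.12), LINC01342 (0.61 ± 0.13), LINC01239 (0.50 ± 0.10), LINC00221 (0.41 ± 0.09) and LINC01093 (0.40 ± 0.08). The control means of LINC01342 (4.45) and LINC01093 (4.55) lay under the intensity bound, so both entered through their BRPF3 siRNA arrays and the sizes of their differences are uncertain. The second probe set of LINC01093 lay under the bound and read lower, by -0.27. Over the 12 risen genes with both group means at or above the bound, limma's adjusted p lay between 0.00756 and 0.0398.

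**Figure D1:**
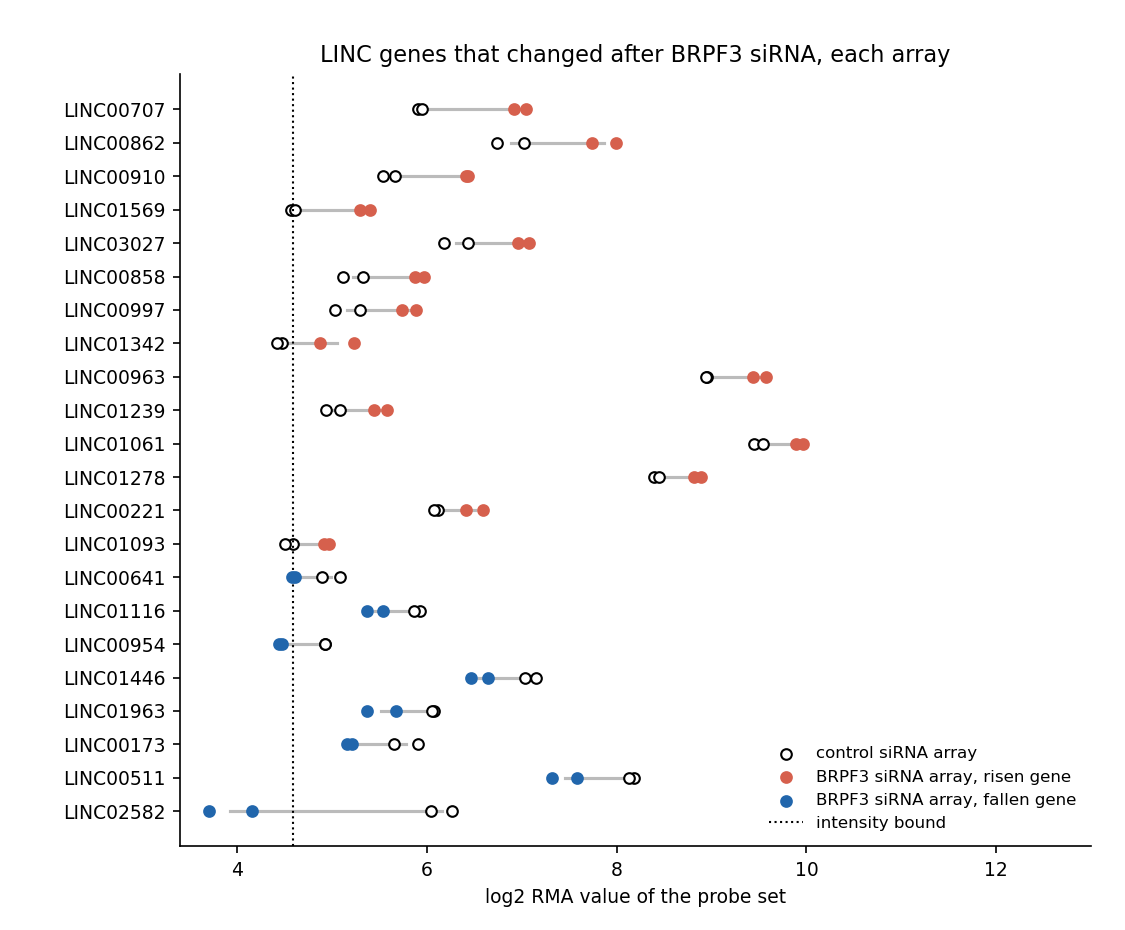
Log2 RMA values of the 22 LINC genes that changed, on each of the 4 arrays, with control siRNA arrays as open circles and BRPF3 siRNA arrays filled. Grey lines join the group means and the dotted line is the intensity bound at 4.59. LINC02582 shows the widest gap, and its BRPF3 siRNA arrays lie left of the bound.

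The calls depend on the array and gene sets that enter the fit. Fewer LINC genes passed limma's adjusted test with any 1 array left out, and fewer of all genes tested did so as well. Such a fit leaves 1 array in a group. Over all settings in which it was tested, LINC00707 differed by 0.99 to 1.12. LINC00641, the smallest fall, differed by -0.49 to -0.29. With all probe sets above the bound in 1 fit, named or not, 5 passed, LINC00707, LINC00862, LINC00910 and LINC01569 besides LINC02582. Of all genes, 1.51% rose and 2.1% fell in that fit. LINC02582 was included for the size of its fall and entered through its control arrays, so nothing is read from its passing.

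Promoter windows were examined for what the changed genes share beyond their difference. Windows of 300 bases, 250 before to 50 after the first listed transcript start, came from RefSeq on GRCh38.p14, which had an entry for 103 of the 148 genes and for 15 of the 22 that changed. Shown here are the windows of the 2 largest falls and the 3 largest rises with an entry, chosen by the size of the difference alone. They hold from 3 to 39 CG dinucleotides, the letters that mark CpG island promoters. The changed genes with an entry ran from 1 (LINC00997) to 43 (LINC00963). Each is written 5′ to 3′ on the strand of the gene, with CG dinucleotides in capitals. The windows are chr17:72640423-72640722 on the minus strand for LINC00511, chr12:116533172-116533471 on the plus strand for LINC00173, chr1:200373743-200374042 on the minus strand for LINC00862, chr17:43388849-43389148 on the minus strand for LINC00910 and chr16:4253740-4254039 on the minus strand for LINC01569.
LINC00511: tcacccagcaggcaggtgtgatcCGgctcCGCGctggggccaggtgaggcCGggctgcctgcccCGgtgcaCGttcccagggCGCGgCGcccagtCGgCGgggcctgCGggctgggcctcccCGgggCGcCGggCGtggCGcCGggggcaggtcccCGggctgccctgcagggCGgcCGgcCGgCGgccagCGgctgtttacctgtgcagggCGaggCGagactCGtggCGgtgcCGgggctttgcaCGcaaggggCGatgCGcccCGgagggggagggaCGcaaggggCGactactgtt
LINC00173: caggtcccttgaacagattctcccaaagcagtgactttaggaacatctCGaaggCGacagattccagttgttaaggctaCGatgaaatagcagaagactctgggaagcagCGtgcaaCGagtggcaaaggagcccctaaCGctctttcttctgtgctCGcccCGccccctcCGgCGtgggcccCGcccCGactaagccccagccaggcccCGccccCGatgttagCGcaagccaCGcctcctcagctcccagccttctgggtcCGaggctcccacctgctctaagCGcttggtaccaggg
LINC00862: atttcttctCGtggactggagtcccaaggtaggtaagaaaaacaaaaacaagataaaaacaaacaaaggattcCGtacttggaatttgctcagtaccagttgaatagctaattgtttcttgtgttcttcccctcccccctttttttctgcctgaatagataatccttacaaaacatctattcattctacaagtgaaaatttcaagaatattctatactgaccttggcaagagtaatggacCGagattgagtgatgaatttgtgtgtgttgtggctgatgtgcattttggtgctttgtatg
LINC00910: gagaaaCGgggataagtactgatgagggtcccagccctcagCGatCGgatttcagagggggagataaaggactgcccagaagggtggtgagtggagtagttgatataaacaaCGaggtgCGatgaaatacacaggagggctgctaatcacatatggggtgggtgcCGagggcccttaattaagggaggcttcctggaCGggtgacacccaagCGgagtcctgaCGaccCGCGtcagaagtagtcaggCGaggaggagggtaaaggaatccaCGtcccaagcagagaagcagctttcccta
LINC01569: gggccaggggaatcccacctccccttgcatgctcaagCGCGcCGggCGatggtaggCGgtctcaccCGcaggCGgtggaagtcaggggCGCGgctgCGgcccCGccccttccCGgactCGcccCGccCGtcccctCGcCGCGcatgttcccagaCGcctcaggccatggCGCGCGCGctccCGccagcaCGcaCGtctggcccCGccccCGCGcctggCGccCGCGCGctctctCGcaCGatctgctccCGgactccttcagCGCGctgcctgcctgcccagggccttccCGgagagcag

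The fallen LINC00511 and the risen LINC01569 both had windows dense in CG, with 35 and 39 of these dinucleotides, and the risen LINC00862 had 3. LINC00173 had 18 and LINC00910 had 13. At least 15 CG dinucleotides were found in 4 of 5 fallen genes with an entry, in 4 of 10 risen genes and in 39 of 88 genes that did not pass, against 48.8% of all 27305 gene promoters in the table. LINC00641 was the fallen gene with few (2), and LINC00963 had the most among the risen genes (43). Both directions thus included promoters rich and poor in CG.

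Short motifs were searched on both strands. The GC box was searched as GGGCGG, which itself holds a CG. The core of the TATA box was searched as TATAAA. The last motif was the box named for its letters, CCAAT. The GC box was present in 5 of 10 risen, 4 of 5 fallen and 37 of 88 other genes, against 44.6% of all promoters. The TATA box core was found in 2 risen genes, LINC00910 and LINC01278, in 0 fallen genes and in 7 others, against 12% of all promoters. The last motif was found in 1 risen, 1 fallen and 35 other genes, against 35.7%. The windows depend on the first listed start of each gene, and the match of a motif is a description of these letters.

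Among the 126 LINC genes that did not pass, log2 differences ran from -0.58 to 0.57, and 46 were smaller than 0.1 in size. The arrays of the groups did not overlap for 63 of them, and 32 had an unadjusted p under 0.05. With passing genes included, the arrays did not overlap for 57.4% of LINC genes and 63.2% of all genes. An unadjusted p under 0.05 was then reached by 36.5% and 34.6%. Shares among all genes that did not pass were not computed, so nothing particular to LINC genes is read from these counts. The largest differences were those of LINC00240 (-0.58 ± 0.17, adjusted p = 0.0697), LINC01743 (-0.56 ± 0.14, adjusted p = 0.0518), LINC00489 (0.57 ± 0.17) and LINC00339 (0.53 ± 0.17, adjusted p = 0.0887). In LINC01743 the BRPF3 siRNA arrays, at 5.02 and 5.43, lay 0.42 apart, and in LINC00339, at 6.25 and 5.73, 0.52 apart. In both genes the BRPF3 siRNA arrays differed more from each other than the control arrays did.

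Differences of similar size that did not pass were those of LINC00536 (-0.49 ± 0.16), LINC01139 (-0.49 ± 0.15) and LINC00630 (-0.41 ± 0.14) among lower values. Among higher values they were those of LINC00520 (0.50 ± 0.15), LINC01003 (0.47 ± 0.14) and LINC01547 (0.44 ± 0.12). A group mean lay under the intensity bound in LINC00489 (control, 4.47), LINC01003 (control, 4.40) and LINC00536 (BRPF3 siRNA, 4.46), which entered through the other group. In the other 4 of these 6 genes the adjusted p lay between 0.0634 for LINC01547 and 0.101 for LINC00630.

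Of the 5 LINC genes with the highest means, 0 passed limma's adjusted test, and 2 of them, LINC00987 and LINC01000, had an unadjusted p under 0.05. LINC00987 read 12.21 and 11.96 with control siRNA and 11.83 and 11.74 with BRPF3 siRNA (-0.30 ± 0.11, adjusted p = 0.109). LINC01347 had group means of 10.67 and 10.90 (0.23 ± 0.10, adjusted p = 0.150). LINC01000 read 10.15 and 10.20 against 10.42 and 10.56 (0.32 ± 0.09, adjusted p = 0.0609). In these 3 genes and in LINC03033 the groups did not overlap, while LINC00933 overlapped and differed by -0.0012 ± 0.08 (adjusted p = 0.993). LINC03033 differed by -0.26 ± 0.11 (adjusted p = 0.152). Further probe sets above the bound read the other way in LINC00987 (0.12), in LINC00933 (0.26) and in 1 of 2 for LINC01000 (-0.20, the other 0.36), while all of LINC01347's read higher.

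Some well studied members were looked up after their values were seen. LINC00460, studied in squamous cell carcinoma, differed by -0.08 ± 0.09 (adjusted p = 0.581), and LINC00467, studied in neuroblastoma, by 0.03 ± 0.09 (adjusted p = 0.819). LINC00673, linked to pancreatic cancer risk, read 7.80 and 7.69 against 8.12 and 7.67 and differed by 0.14 ± 0.15 (adjusted p = 0.553). LINC00958, studied in bladder cancer, differed by 0.07 ± 0.08 (adjusted p = 0.554). The groups overlapped for LINC00460, LINC00467 and LINC00673, and those of LINC00958 did not.

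**Figure D2:**
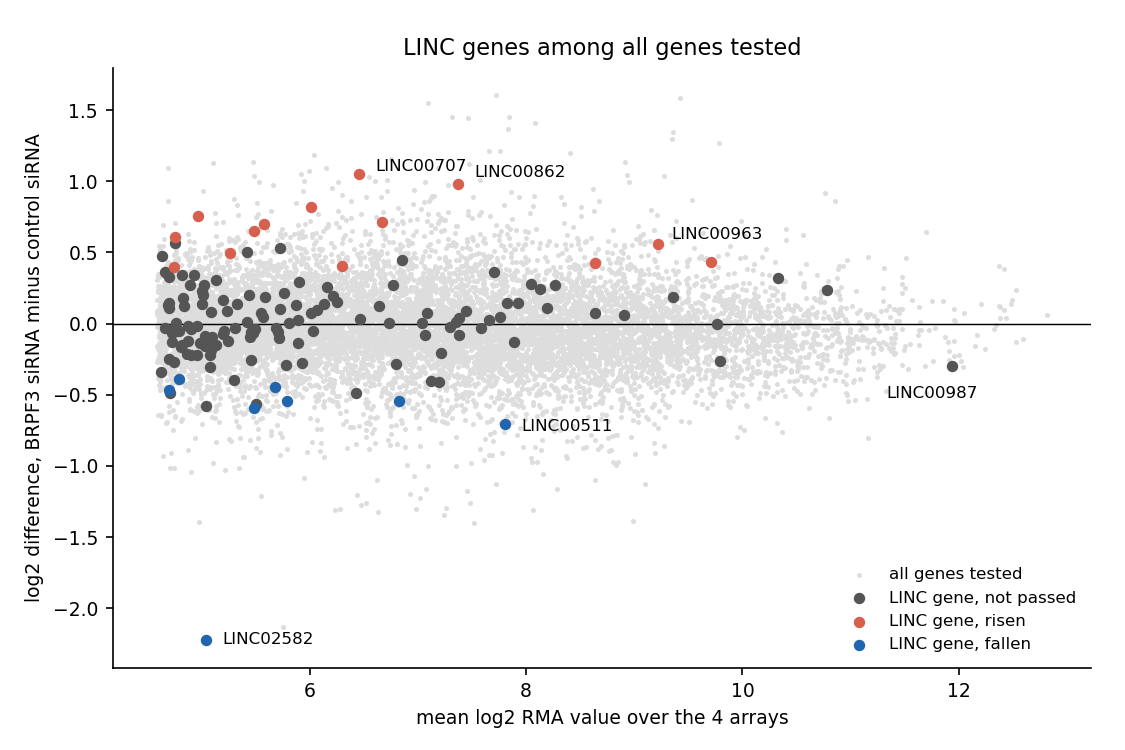
Log2 difference between BRPF3 siRNA and control siRNA (vertical axis) against the mean log2 RMA value over the 4 arrays (horizontal axis), with 1 point per gene. The 148 LINC genes are drawn over all 10696 genes tested (light grey), and LINC02582 at -2.22 lies apart from the others.

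Of the 148 genes, 120 had 1 probe set and 28 had several. The 28 had 49 further probe sets, of which 32 differed in the same direction as the 1 used. Among the 35 further probe sets at or above the bound, 26 shared the direction. LINC01623 had 7 probe sets, of which 4 held identical values on every array, so the counts of further probe sets include repeats of 1 measurement. The LINC genes had an SD of 0.13 between control arrays and 0.19 between BRPF3 siRNA arrays, against 0.12 and 0.14 for all genes. Under the 75th percentile of probe set means lay 104 of the 148 LINC genes, against 4289 of all 10696 genes. Spread was not compared at equal brightness or with other long noncoding RNA genes. It is therefore not read as a trait of LINC genes.

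Setting LINC genes beside other classes, 35 of 458 other long noncoding RNA genes rose (7.64%) and 9 fell (1.97%), while 581 of 9492 protein-coding genes rose (6.12%) and 948 fell (9.99%). Medians of the log2 difference were 0.02 for LINC genes, 0.07 for the other long noncoding RNA genes and -0.04 for protein-coding genes. The share of differences above 0 was 54.1%, 62.7% and 43.4%. Fallen LINC genes were therefore placed between these classes by share, without a test of that order.

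The split of all genes moves with the scaling. After quantile normalization the LINC genes had 16 risen and 7 fallen and a median of 0.04, the other long noncoding RNA genes 36 and 7, and the protein-coding genes 668 and 673. Risen LINC genes were then 10.8% beside 7.14% of all genes, and fallen ones 4.73% beside 6.71%. Risen genes then made up 51.6% of all calls, against 40.1% on the deposited values. Cyclic loess normalization gave 16 and 8 for LINC genes and 669 and 689 for protein-coding genes.

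A split by brightness was added after the data were seen. Among genes under the 75th percentile of probe set means, 8 of 104 LINC genes rose (7.69%) and 6 fell (5.77%), beside 4.53% and 1.13% of 353 other long noncoding RNA genes, 5.06% and 6.26% of 3417 protein-coding genes and 5.27% and 5.85% of all genes. At or above it, 6 of 44 LINC genes rose (13.6%) and 2 fell (4.55%), beside 18.1% and 4.76% of 105 other long noncoding RNA genes, 6.72% and 12.1% of 6075 protein-coding genes and 7.02% and 11.8% of all genes. Of the brighter LINC genes 30 of 44 had a difference above 0, and of the dimmer ones 50 of 104.

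**Figure D3:**
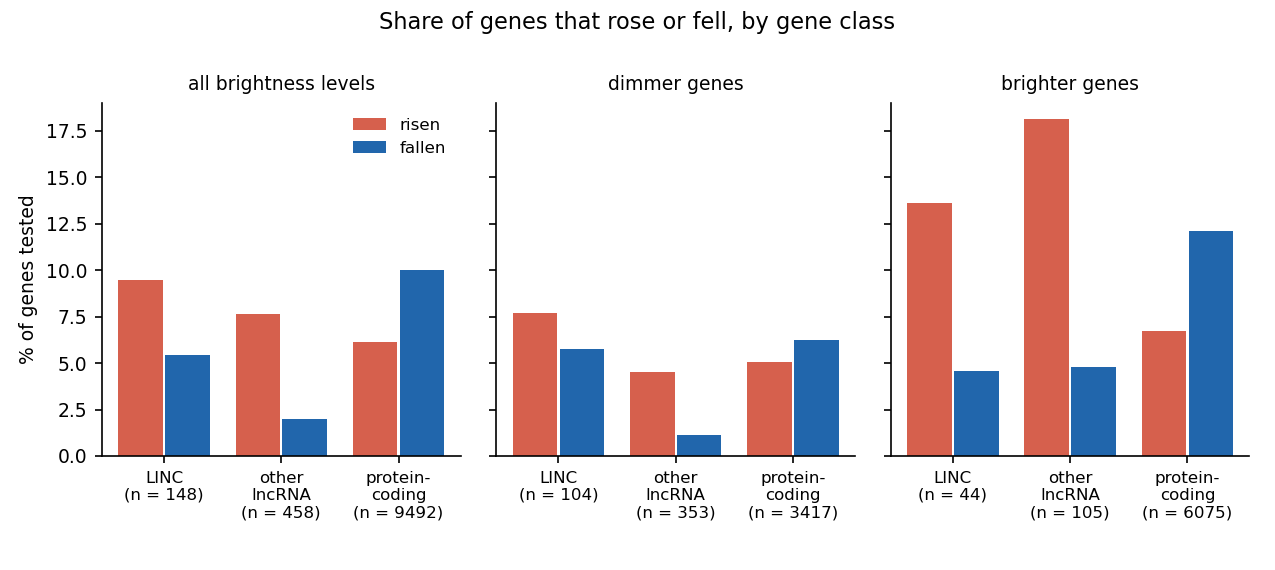
Percent of genes tested that rose or fell (limma, adjusted p under 0.05) in LINC genes, other long noncoding RNA genes and protein-coding genes, for all genes and split at the 75th percentile of probe set means. Bars start at 0. Fallen protein-coding genes reach 12.1% among the brighter genes, where 4.55% of LINC genes and 4.76% of other long noncoding RNA genes fell.

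Neighbouring protein-coding genes were taken from the gene order of RefSeq on GRCh38.p14, the nearest on each side of a LINC gene. Protein-coding genes that overlap a LINC gene, as found for 15 of the LINC genes, were not counted as neighbours. A tested neighbour was found for 108 of the 148 genes, giving 149 pairs with 138 distinct neighbours. The LINC gene and its neighbour differed in the same direction in 80 pairs, or 53.7%, beside 51.9% of 5135 pairs of adjacent protein-coding genes. Of the 138 neighbours 16 changed, or 11.6%, against 15.8% of all genes tested.

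Of the 22 changed LINC genes 17 had a tested neighbour, and among these 20 neighbours 4 fell and 0 rose. Of all genes tested 9.44% fell and 6.32% rose. The 17 include LINC02582, which was chosen for its fall, and the neighbours are few, so nothing is read from their direction. NETO1, which encodes a transmembrane protein of kainate and NMDA receptor complexes, lies next to LINC02582 in gene order. It read 9.04 and 8.95 with control siRNA and 8.28 and 8.13 with BRPF3 siRNA, a fall by 0.78 ± 0.09 (limma, adjusted p = 0.0113). Both genes were lower on both BRPF3 siRNA arrays. LINC02864 lies between the same flanking genes, read 5.98 and 6.26 against 6.18 and 6.44 and did not pass (0.20 ± 0.13, adjusted p = 0.354), with overlapping groups. MAP1LC3B2, a copy of the autophagy gene MAP1LC3B, lies next to LINC00173 and fell by 0.58 ± 0.08 (adjusted p = 0.0160), though its near identity to MAP1LC3B leaves the source of this signal uncertain.

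In the other pairs of changed genes the directions were opposite. TFAP4, a transcription factor of the helix-loop-helix class, fell by 0.36 ± 0.09 (adjusted p = 0.0484) next to LINC01569, which rose. DMRTA1 read 7.53 and 7.70 with control siRNA and 6.94 and 7.24 with BRPF3 siRNA (-0.53 ± 0.13, adjusted p = 0.0455), next to LINC01239, which rose. SOX9, the chondrocyte regulator next to LINC00511, read 10.37 and 10.67 against 10.71 and 11.01 and did not pass (0.34 ± 0.15, adjusted p = 0.166). KBTBD2, next to LINC00997, differed by -0.53 ± 0.13 (adjusted p = 0.0506).

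Other neighbours of fallen genes that did not pass were HNRNPC (-0.28 ± 0.08), an RNA-binding protein next to LINC00641, XRCC5 (-0.26 ± 0.08), the Ku80 subunit of end joining next to LINC01963, and HNRNPA3 (-0.42 ± 0.26) next to LINC01116. POM121L12 (-0.30 ± 0.08), MED13L (-0.15 ± 0.09), FBXO15 (-0.20 ± 0.11) and TTC32 (0.15 ± 0.11) were the others. Neighbours of risen genes that did not pass included SFMBT2 next to LINC00707 (0.16 ± 0.17), ZNF281 next to LINC00862 (0.21 ± 0.08) and NTMT1 next to LINC00963 (0.20 ± 0.08). They also included ACSL1 (0.12 ± 0.08), RGR (-0.08 ± 0.10), C1orf159 (-0.02 ± 0.08) and AVL9 (-0.31 ± 0.09). LINC00910, LINC01061, LINC01278, LINC00221 and LINC03027 had no tested protein-coding neighbour.

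**Figure D4:**
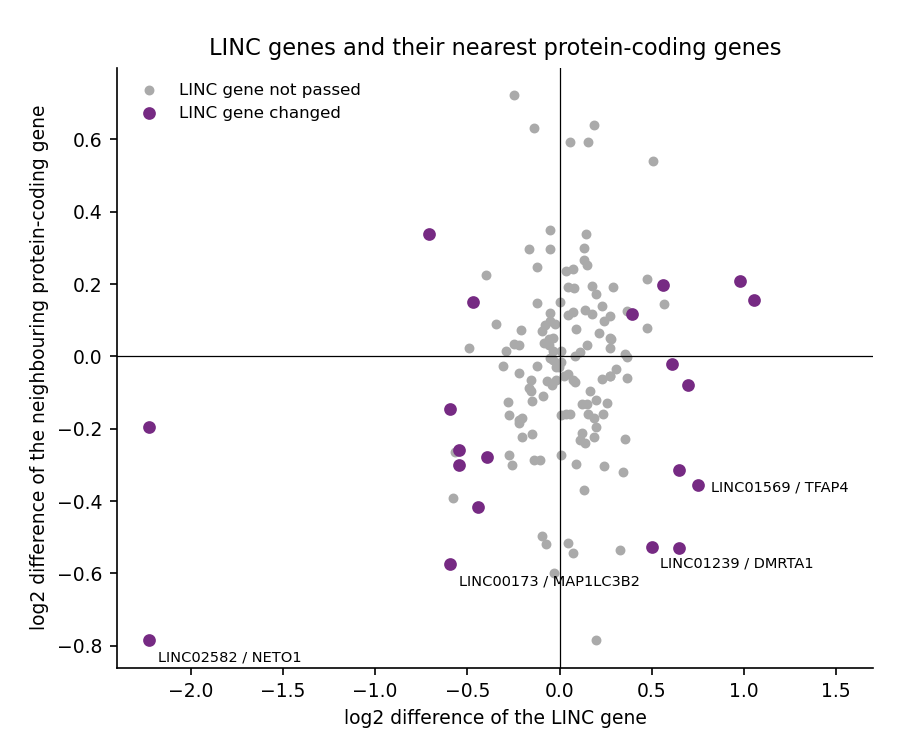
Log2 difference of each LINC gene (horizontal axis) against that of its nearest protein-coding gene on either side (vertical axis), 149 pairs. Pairs of the changed LINC genes are purple, and names mark the 4 pairs in which the neighbour changed as well. Points lie in all 4 quadrants.

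Other noncoding RNAs and the proteins that process or degrade such transcripts were listed for comparison. The 13 tested noncoding RNAs with names of their own had a median log2 difference of 0.19. Of the 13, 4 rose and 0 fell (5 higher and 1 lower at an unadjusted p under 0.05 in limma). These were LINC-PINT (0.39 ± 0.08), a p53-induced transcript, NORAD (0.35 ± 0.08), which binds Pumilio proteins, RPPH1 (0.34 ± 0.08), the RNA of RNase P, and CYTOR (0.33 ± 0.08). MALAT1, the abundant nuclear speckle RNA, differed by -0.20 ± 0.09 (adjusted p = 0.205). The largest difference of the 13 was that of UCA1, which was lower and did not pass (-0.47 ± 0.14, limma, adjusted p = 0.0787). In all, 10 of the 13 lay above 0 and 3 below. With the replicate number as a block 1 of these 13 rose and 1 fell. Leaving out an array left 0 risen, or 1 without BRPF3 siRNA replicate 1, and 0 fallen.

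Of 12 snoRNA host genes, 0 rose and 1 fell (0 and 3 at an unadjusted p under 0.05), GAS5 by 0.33 ± 0.08, with a median of -0.08. None of the 12 fell after quantile or cyclic loess normalization, with the block, without an intensity filter, with all probe sets, without either control array or without BRPF3 siRNA replicate 2. Of 10 tested microRNA host genes, 0 rose and 0 fell in limma's adjusted test (4 higher and 1 lower at an unadjusted p under 0.05), with a median of 0.15. The lists hold few genes, and 6.32% of all genes tested rose and 9.44% fell.

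Among 26 tested genes of 3′ end formation and nuclear RNA turnover, 0 rose and 5 fell (0 and 15 at an unadjusted p under 0.05), with a median log2 difference of -0.24 against -0.03 over all genes. RBM7, the RNA-binding subunit of the nuclear exosome targeting complex, read 7.55 and 7.43 with control siRNA and 6.92 and 6.97 with BRPF3 siRNA (-0.54 ± 0.08, adjusted p = 0.0186). EXOSC9, a core subunit of the exosome, fell by 0.45 ± 0.09, and DIS3, its catalytic nuclease, by 0.35 ± 0.08. INTS4 (-0.35 ± 0.08) and INTS11 (-0.33 ± 0.08), subunits of the Integrator cleavage module, fell as well. In all, 24 of the 26 genes had a difference below 0. Over all genes 9.44% fell, 34.6% had an unadjusted p under 0.05 and 55.1% were below 0. Nearly all of the list, 25 of 26, lay at or above the 75th percentile of brightness, where 11.8% of all genes fell and 42% were above 0. After quantile normalization 2 of the 26 fell, 21 were below 0 and the median was -0.19. Fallen genes of the list numbered 12 with an intensity trend (15% of all genes), 13 of 25 with a filter at the 75th percentile (20.7%) and 11 at an adjusted p under 0.1 (15.5%). They numbered 3 with the replicate block (8.7%), 0 without an intensity filter (1.5%), 0 with all probe sets (2.1%), 0 without control siRNA replicate 1 or 2 or BRPF3 siRNA replicate 1, and 1 without BRPF3 siRNA replicate 2.

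**Figure D5:**
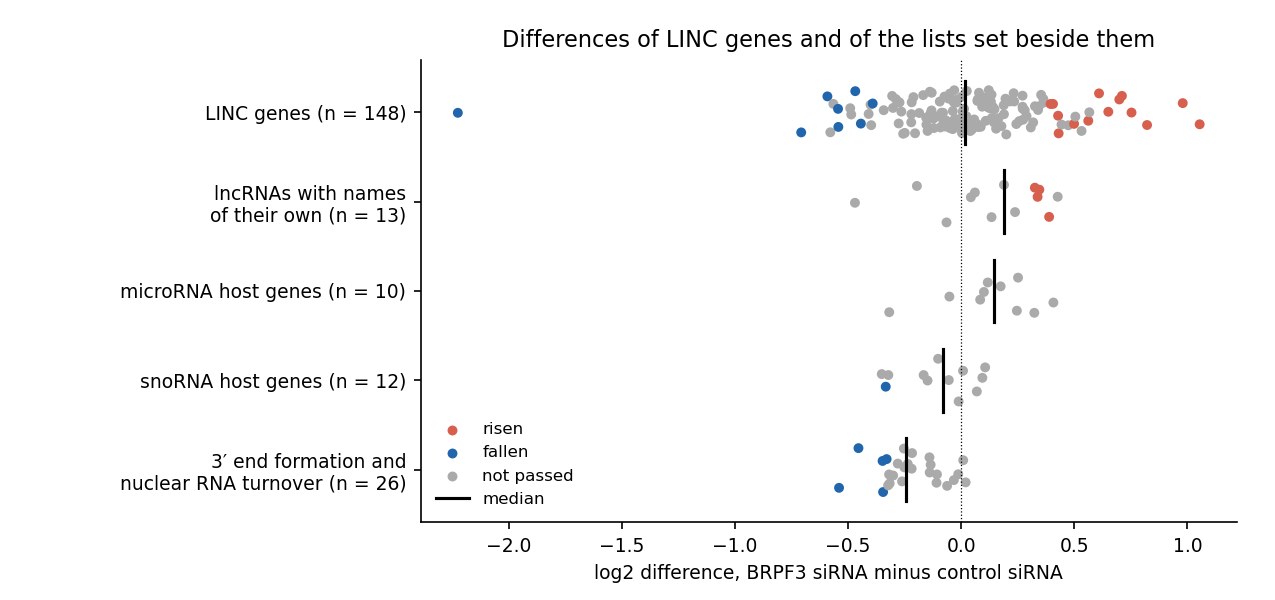
Log2 differences between BRPF3 siRNA and control siRNA of the 148 LINC genes and of the tested genes of 4 lists, 1 point per gene, coloured by call, with the median as a black bar. The points are spread vertically for display alone. The turnover genes lie mostly left of 0, with a median of -0.24.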

How the data were processed

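Total RNA of 4 U2OS samples was hybridised to Affymetrix whole-transcript arrays, 1 array per sample. The authors deposited log2 values per probe set, made with RMA per the submitters' processing notes. Its version, its settings and the genome build: not given in the sources used here. Distributions were near equal between arrays, from 0.80 to 13.57, and no further scaling was applied. RMA pulls differences of dim probe sets towards 0.

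Of 53617 probe sets, 16098 had 1 gene symbol in the platform annotation, for 14884 genes. The brightest probe set stood for a gene, and genes with a mean under 4.59 were left out. The comparison used limma 3.58.1 under R 4.3.3 (functions lmFit and eBayes, no trend, two-sided, 2 residual and 3.81 prior degrees of freedom), with Benjamini-Hochberg adjustment over 10696 genes. An exact permutation test of 2 against 2 arrays cannot pass, so the test shares variance between genes. The procedure was tested on simulated data. RefSeq tables gave gene classes, gene order and promoters.

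Members, lists and tests were chosen with earlier results of these data known. The rule for named genes took the changed LINC genes, the 5 brightest, the 5 largest rises and falls that did not pass, neighbours of changed genes and changed list members. LINC00460, LINC00467, LINC00673 and LINC00958 as well as MALAT1 and UCA1 were added after values were seen. Alternatives covered normalization, replicate block, moderation, filter, probe set choice, threshold and each array left out.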

Additional observations from a re-analysis of the deposited data

How the results depend on the processing

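The 22 changed LINC genes became 35 with an intensity trend, 46 at an adjusted p under 0.1, 6 without an intensity filter and 5 with all probe sets in the fit, where more probe sets are tested. With single arrays omitted the count lay between 0 and 20, and a group's lone array is there assumed to vary like the other group. Under the remaining alternatives it stayed within 1.5 times. Shares of all genes called also grew with the intensity trend and the looser threshold, and shrank without a filter and with all probe sets. In the main fit 6.32% of all genes rose and 9.44% fell. These shares were 9.69% and 15% with the trend and 11.4% and 15.5% at the looser threshold. They were 1.24% and 1.5% without a filter and 1.51% and 2.1% with all probe sets. The replicate number as a block gave 25 changed LINC genes and kept all 22, while 6.29% of all genes rose and 8.7% fell. Same-numbered arrays deviated together with a correlation of 0.14 over 10696 genes. The median log2 difference of the LINC genes was 0.064 with a filter at the 75th percentile, where 44 remain, and otherwise lay between 0.0069 and 0.041. The changed genes kept their sign in each setting in which they were tested, but LINC00173, LINC00641 and LINC01093 were not tested as the mean of their probe sets, which lay under the bound. That mean, added after the data were seen, was 0.084 for LINC00173, against -0.59 for its brightest probe set, -0.22 for LINC00641 and 0.060 for LINC01093. LINC00933 read 0.091 after quantile and 0.078 after cyclic loess normalization and 0.13 as the mean of its probe sets. When single arrays were omitted, LINC00933 lay between -0.042 and 0.040, LINC00467 between -0.041 and 0.11 and LINC00673 between -0.079 and 0.37. The cause of these shifts was not tested. The share of neighbour pairs with the same direction lay between 50.3% and 60%.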

Other observations

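The 310 LINC genes under the intensity bound, 67.7% of all LINC genes with a named probe set, enter none of the comparisons above. Under the bound lay 28.1% of all named genes. Their means over the 4 arrays ran from 1.73 to 4.57, and their log2 differences from -0.76 to 0.67 with a median of 0.03. Nearest to the bound were LINC00977 (mean 4.63) and LINC01003 (4.63) on the inside and LINC00229 (4.57) and LINC00940 (4.57) on the outside. LINC00940 read 4.41 and 4.13 with control siRNA and 5.03 and 4.70 with BRPF3 siRNA.

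When all 14884 named genes were tested without a filter, 1 of these 310 passed. LINC01776 read 4.41 and 4.30 with control siRNA and 3.63 and 3.56 with BRPF3 siRNA, a difference of -0.76 ± 0.09 (limma, adjusted p = 0.0384). These values lie near background, so the size of the difference is uncertain.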
